A study of Mus musculus with 2 samples.

Results

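The G2/M and mitotic genes are a group of 38 genes of the second gap phase and of mitosis, chosen by name and found among the 32285 genes counted in each library. They were listed for their known roles in cell division. Single-cell RNA sequencing on the 10x Genomics system was run on mouse cornea and limbus, the ring of tissue around the cornea that holds its epithelial stem cells. One group is the library of genotype wt, and the other is the library of genotype Pax6 +/-, in which 1 copy of the eye transcription factor gene Pax6 is labelled as lost. The series description names 2 mice of each genotype, but there is 1 library per genotype, and pooling is not stated. The labels give no age, no strain, no sex and no name for the Pax6 allele. With 1 library per genotype there was no test, and "higher" and "lower" describe these libraries alone.

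Cells that have copied their DNA switch on a shared set of genes before they divide. Cyclins activate the kinase Cdk1, the chromosomes condense and attach through their kinetochores to a spindle of microtubules, and a checkpoint holds the cell until every chromosome is attached. The anaphase promoting complex then marks cyclin B and securin for destruction, the sister chromatids part, and a contractile ring divides the cell. In the corneal epithelium divisions take place in the basal layer, whose cells carry the keratin Krt14, while the cells above them leave the cell cycle, and the limbus supplies new basal cells.

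Cells were kept with at least 500 genes, at least 1000 UMIs (unique molecular identifiers, each counting 1 captured RNA molecule) and at most 20% mitochondrial UMIs, which left 10154 wild-type cells and 9542 cells of the other library. Epithelial cells were those with at least 30 UMIs of Krt5, Krt14 and Krt15 together per 10000, and they numbered 8552 and 6796, with medians of 11294 and 14175 UMIs. Levels are given as CPM (UMIs per 1000000 of the class total without mitochondrially encoded genes). In these cells Pax6 had a level of 372 CPM among wild-type cells and of 743 CPM in the library labelled Pax6 heterozygous. With the allele not named, a higher RNA level cannot decide whether the label holds, and the genotype was not tested. The library labelled Pax6 heterozygous is therefore named by its label throughout. Krt12, the keratin of the differentiated cornea, stood at 29618 and 1769 CPM. Among wild-type epithelial cells 8156 held Xist UMIs and no UMI of 4 Y-linked genes, and none held the reverse, whereas the labelled heterozygous library had 3376 cells with Xist alone and 2485 with Y-linked UMIs alone. It therefore held cells of both sexes and the wild-type library those of females. The libraries shared 40 cell barcodes.

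Many genes of the group are known to be switched on together through promoters with CCAAT boxes and a cell cycle homology element near the start. The promoters of 33 members, with 34 starts, were matched by symbol in the RefSeq table of mouse build GRCm38.p6. The motifs searched were CCAAT, in the 250 bases before the start, and TTTGAA, from 100 bases before to 50 after it, each on both strands (ATTGG and TTCAAA on the other), and they can share a letter at their ends. Of the 34 starts, 17 (50%) had 2 or more CCAAT against 10.1% of all 32851 starts in the table, and 23 (67.6%) had TTTGAA against 8.01%. Both features stood at 14 starts (41.2%) against 0.840% of all. A match describes letters and not a binding site. The promoters of 5 members that carry both motifs are shown as chosen examples. Top2a, Cdk1 and Cdc20 are among the members near or above a ratio of 1 between the libraries below, and Ube2c and Cenpf among the lowest. Among the members with neither motif were Pttg1, which had the lowest ratio, and Birc5, which stood near 1. How the motifs go with the ratio was not tested. Each window runs 5′ to 3′ from 120 bases before to 10 after the start, with the motifs in capitals.
Top2a (chr11:99024180-99024309, minus strand): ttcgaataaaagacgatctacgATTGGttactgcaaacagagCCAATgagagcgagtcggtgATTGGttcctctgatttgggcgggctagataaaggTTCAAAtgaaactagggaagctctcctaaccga
Cdk1 (chr10:69352903-69353032, minus strand): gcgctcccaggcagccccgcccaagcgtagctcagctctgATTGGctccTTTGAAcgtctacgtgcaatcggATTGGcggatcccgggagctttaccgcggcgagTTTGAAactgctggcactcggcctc
Cdc20 (chr4:118437334-118437463, minus strand): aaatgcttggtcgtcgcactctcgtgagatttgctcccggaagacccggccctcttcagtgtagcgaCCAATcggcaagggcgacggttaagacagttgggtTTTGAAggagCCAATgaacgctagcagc
Ube2c (chr2:164769809-164769938, plus strand): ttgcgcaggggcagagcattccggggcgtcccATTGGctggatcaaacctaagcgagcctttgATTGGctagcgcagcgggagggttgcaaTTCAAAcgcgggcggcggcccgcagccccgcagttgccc
Cenpf (chr1:189688077-189688206, minus strand): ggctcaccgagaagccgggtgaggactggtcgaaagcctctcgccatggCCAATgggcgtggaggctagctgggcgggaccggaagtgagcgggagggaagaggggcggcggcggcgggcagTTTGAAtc

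In the epithelium as a whole most members stood lower in the labelled heterozygous library. A member passed the low-level filter with 5 CPM or more in either library, which 37 of 38 did. Of these, 27 had a ratio of the labelled heterozygous over the wild-type level below 1 and 10 above it. At a ratio of 0.5 or below stood 6 members, against 6.62% of all 10661 genes that passed. None stood at 2 or above, against 16.7% of all genes. The median log2 ratio of the members was -0.32 and that of all genes 0.22. Intervals given below are exact 95% intervals that cover counting error only. Under the edgeR and DESeq2 scaling factors the median of all genes moved to -0.12 and -0.14, that of the members to -0.66 and -0.68, the members at or below 0.5 numbered 13 of 38 under each, against 11% and 11.3% of all genes, none stood at 2 or above, against 11.2% and 11%, and of the 10 members above 1 Aurkb, Bub1, Hmgb2 and Ttk alone stayed above it. Over all genes, 71.7% of those past 2-fold were higher in the labelled heterozygous library, and 50.4% and 49.3% under the other scalings.

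**Figure D1:**
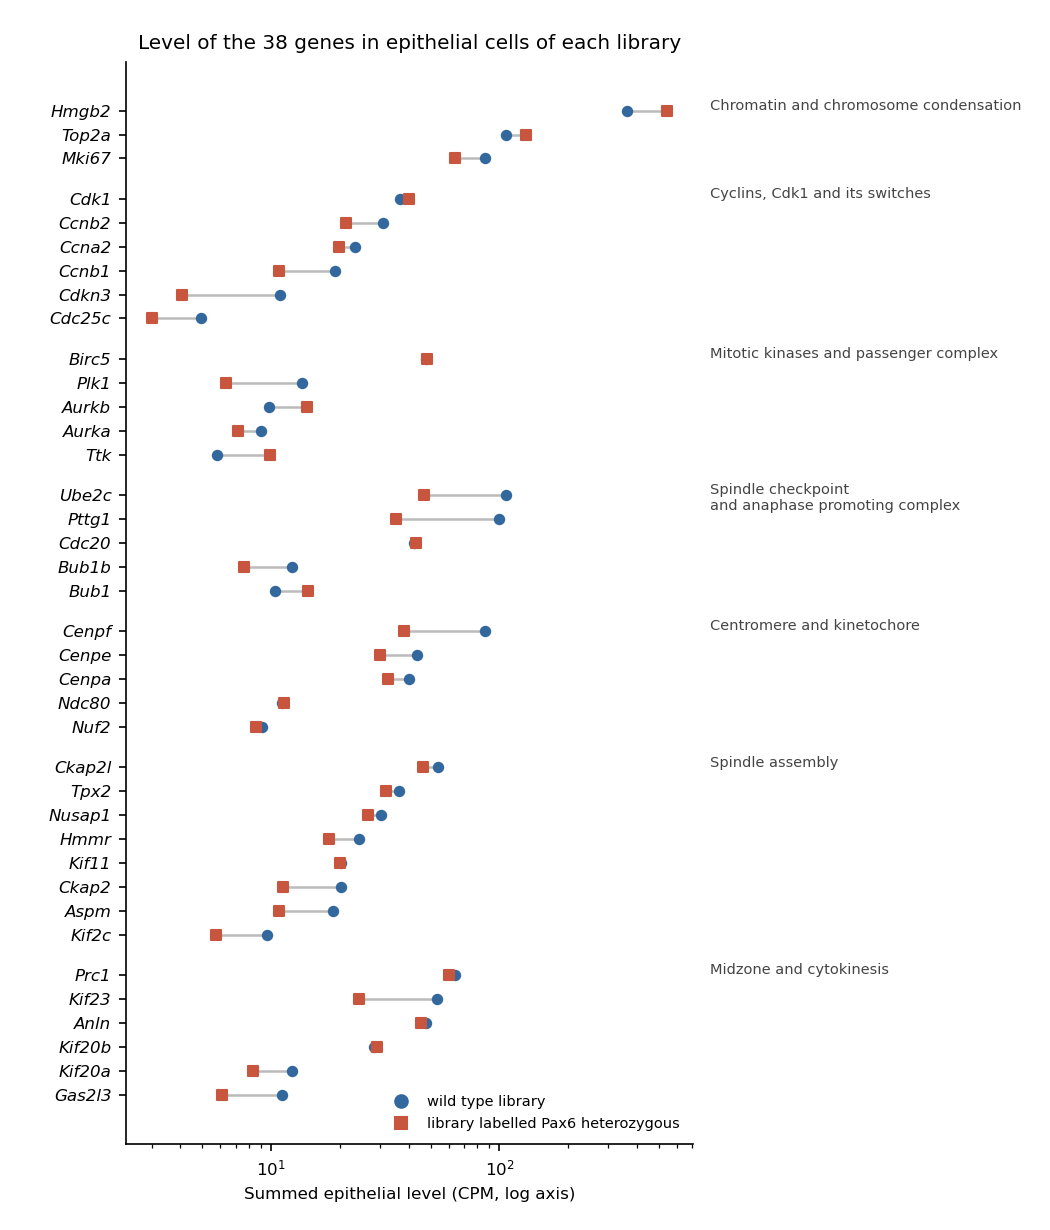
Level of each of the 38 genes in epithelial cells, in CPM on a log axis, grouped by role, with a circle for the wild-type library and a square for the one labelled Pax6 heterozygous. The longest gaps to the left of the circle are those of Pttg1 (99.9 to 35.3 CPM), Cdkn3, Ube2c, Cenpf, Kif23 and Plk1, while Hmgb2, Top2a, Ttk, Aurkb and Bub1 have the square to the right (under the edgeR and DESeq2 scalings Top2a does not).

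Among the 3 members that act on chromatin, 2 stood higher in the labelled heterozygous library. Hmgb2, a DNA-bending chromatin protein that is abundant in dividing cells, stood at 363 CPM in wild-type cells against 543 CPM in labelled heterozygous ones, a ratio of 1.495 (1.476 to 1.514). Top2a, the topoisomerase that untangles sister chromatids, stood at 107 and 130.1 CPM, with a ratio of 1.22 (1.19 to 1.25) that falls below 1 under the edgeR and DESeq2 scaling factors. Mki67, the coat protein of mitotic chromosomes and the standard marker of proliferation, stood at 86.1 and 63.8 CPM, with a ratio of 0.741. Marker and topoisomerase thus differed in opposite directions in the sum over all epithelial cells under the class total, which does not hold in every set of cells. Hmgb2 carries much of the summed level: all 38 members summed to 1659.7 and 1533.8 CPM, with a ratio of 0.924 (0.918 to 0.930), and without Hmgb2 to 1296.6 and 991 CPM, with a ratio of 0.764. The ratio over all members turned to 1.055 at a stricter keratin gate of 50 per 10000 and to 1.15 when only cells with Xist alone were taken from the labelled heterozygous library.

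Of the cyclins, Cdk1 and its switches, 1 of the 5 that passed stood above a ratio of 1. Cdk1, the kinase that drives entry into mitosis, stood at 36.7 and 40.3 CPM, with a ratio of 1.10 (1.05 to 1.15) that also falls below 1 under the other scalings. Its cyclin partners all stood below 1. Ccna2, cyclin A2, which works from S phase on, had a ratio of 0.856, Ccnb2 one of 0.687 and Ccnb1, cyclin B1, one of 0.564, from 19.1 to 10.8 CPM. Cdkn3, a phosphatase that removes the activating phosphate of Cdk1, stood at 10.9 and 4.06 CPM, with a ratio of 0.372 (0.332 to 0.416). Cdc25c, the phosphatase that removes the inhibitory phosphates, did not pass the filter, at 4.95 and 3.01 CPM.

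The mitotic kinases split. Plk1, the polo kinase of the G2/M transition and the spindle poles, stood at 13.7 and 6.35 CPM, with a ratio of 0.463 (0.422 to 0.508), and Aurka, Aurora A of the spindle poles, at 9.06 and 7.19 CPM. Aurkb, the kinase of the chromosomal passenger complex, went the other way with 9.81 and 14.4 CPM, with a ratio of 1.47 (1.36 to 1.59). Its partner Birc5, survivin, hardly differed, at 47.6 and 48.1 CPM. Ttk, the kinase that starts the spindle checkpoint, had the highest ratio of the group, 1.70 (1.54 to 1.88), from 5.79 to 9.86 CPM.

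Spindle checkpoint and anaphase promoting genes held the lowest ratio of all. Pttg1 (GRCm38 chromosome 11, 43420250 to 43426251, minus strand), securin, which keeps the separating enzyme inactive until anaphase, stood at 99.9 and 35.3 CPM, with a ratio of 0.353 (0.340 to 0.367). Ube2c (chromosome 2, 164769898 to 164778822, plus strand), the ubiquitin-conjugating enzyme of the anaphase promoting complex, stood at 107 and 46.8 CPM, with a ratio of 0.436 (0.422 to 0.451). Cdc20, the activator of that complex, stood at 42.1 and 43.2 CPM, so enzyme and activator differed. Of the checkpoint kinases, Bub1 had a ratio of 1.39 (1.28 to 1.497) and Bub1b, which encodes BubR1, one of 0.612 (0.560 to 0.668).

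At the centromere and kinetochore, Cenpf, a protein that appears in G2 and leaves at the end of mitosis, stood at 86.2 and 38.3 CPM, with a ratio of 0.444 (0.428 to 0.461). The kinetochore motor Cenpe had a ratio of 0.691 and Cenpa, the centromere's own histone H3 variant, one of 0.802. Ndc80 and Nuf2, subunits of the complex that grips the microtubule, had ratios of 1.02 and 0.942, and both intervals include 1. All 8 spindle assembly members had ratios below 1, from 0.560 for Ckap2 to 0.988 for the spindle motor Kif11, with Aspm at 0.583, the depolymerase Kif2c at 0.600, Hmmr at 0.740, Ckap2l at 0.861, Nusap1 at 0.879 and Tpx2 at 0.882. Of the 6 midzone and cytokinesis members, Kif23, the motor of the central spindle, stood lowest, at 53.1 and 24.2 CPM, with a ratio of 0.455 (0.435 to 0.477). Gas2l3, a linker of actin and microtubules, followed at 0.548 and the motor Kif20a at 0.677, while the ring and midzone proteins Prc1 (0.937), Anln (0.955) and Kif20b (1.04) stood near 1.

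Other genes of the cell cycle were counted in the same way. Of 44 other mitotic genes 38 passed, and 7 stood at least 2-fold higher in the labelled heterozygous library and 0 lower, near the 16.7% of all genes for the higher ones (4 of 37 and 2 under the edgeR scaling, against 11.2% and 11% of all genes), with Mybl2, a transcription factor of dividing cells, highest at 1.63 and 6.10 CPM and Cdca3 lowest at 32.1 and 18.8 CPM. Of 32 S phase genes 28 stood at least 2-fold higher and 0 lower, or 16 and 0 under the edgeR scaling factors, and their summed level was 617 and 1499 CPM. Of 13 cell cycle inhibitors that passed, 1 stood at least 2-fold higher, Cdkn1c (4.91 and 23.3 CPM), against 16.7% of all genes. At least 2-fold lower stood 1, Cdkn2b (32.9 and 13.9 CPM), against 6.62% of all genes. Under the edgeR scaling these counts were 1 and 4 of 13, against 11.2% and 11% of all genes. The labelled heterozygous epithelium thus held more RNA of the S phase list beside a slightly lower sum of the 38 members.

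The summed members were then read cell by cell. Each cell was thinned at random to 3000 UMIs, which left out 845 wild-type and 485 labelled heterozygous epithelial cells below that depth, and a cell with 6 or more member UMIs was called positive. The share of positive cells was 11.4% in the wild-type library (882 of 7707, 10.7 to 12.2) and 14.2% in the labelled heterozygous one (893 of 6311, 13.3 to 15.0). Without thinning the shares were 43.5% and 54.8%. Keratocytes, which should seldom divide, gave 1 positive cell of 584 and 1 of 867 at median depths of 9554.5 and 15128 UMIs, against 12122 and 14793 in the thinned epithelium, so the epithelial shares lie far above that background. Over all epithelial cells the gap rests on Hmgb2: without it the shares were 10.0% and 10.3%. Among cells with Xist alone a gap remained without Hmgb2, at 10.0% and 13.1%, and labelled heterozygous cells with Y-linked UMIs alone gave 7.1%. Cells near the limit were common, with 469 and 620 cells at 4 to 7 member UMIs.

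The positive cells themselves differed in how much of the group they held. Levels within sets of cells are on the class total, and the other scalings were not applied there. Their median was 23 member UMIs in the wild-type library (quartiles 10 and 43) and 14 in the labelled heterozygous one (8 and 28). Cells with 30 or more made up 4.85% of the wild-type epithelium (374 cells) and 3.22% of the other (203 cells). At the top, 98 wild-type cells and 29 labelled heterozygous cells had 60 or more. In positive cells 11 of 38 members stood at or below a ratio of 0.5, against 7.14% of all genes, and 0 at 2 or above, against 15.9%, which describes cells chosen by the members. The wild-type library had fewer positive cells and more of the strongest ones over all epithelial cells. Among cells with Xist alone the shares with 30 or more were 4.85% (371 of 7655) and 4.73% (154 of 3254), close to each other over the whole epithelium. Within the bands of Krt14 described below, which the libraries hold in different proportions, the wild-type share among cells with Xist alone was the higher one. It was 8.2% against 5.6% in the high band, 8.0% against 4.4% in the middle band and 2.6% against 0.97% in the low band. Cells with Y-linked UMIs alone gave 1.57% (38 of 2421) over the whole epithelium.

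A list of 32 S phase genes, called positive by the same limit of 6 UMIs of 3000, divided the positive cells further. These are counts of UMIs of both lists and no measure of the phase itself. Cells positive for the S list alone made up 3.17% of the wild-type epithelium (2.79 to 3.58) and 14.6% of the labelled heterozygous one (13.7 to 15.5). Cells positive for both lists made up 4.06% (313 cells) and 10.5% (665 cells). Cells positive for the G2/M and mitotic genes alone made up 7.38% (569 cells, 6.81 to 7.99) and 3.61% (228 cells, 3.17 to 4.10). The direction thus turned from S-positive to G2/M-only cells, and it was the same in each of the 14 settings for which these shares were recomputed.

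**Figure D2:**
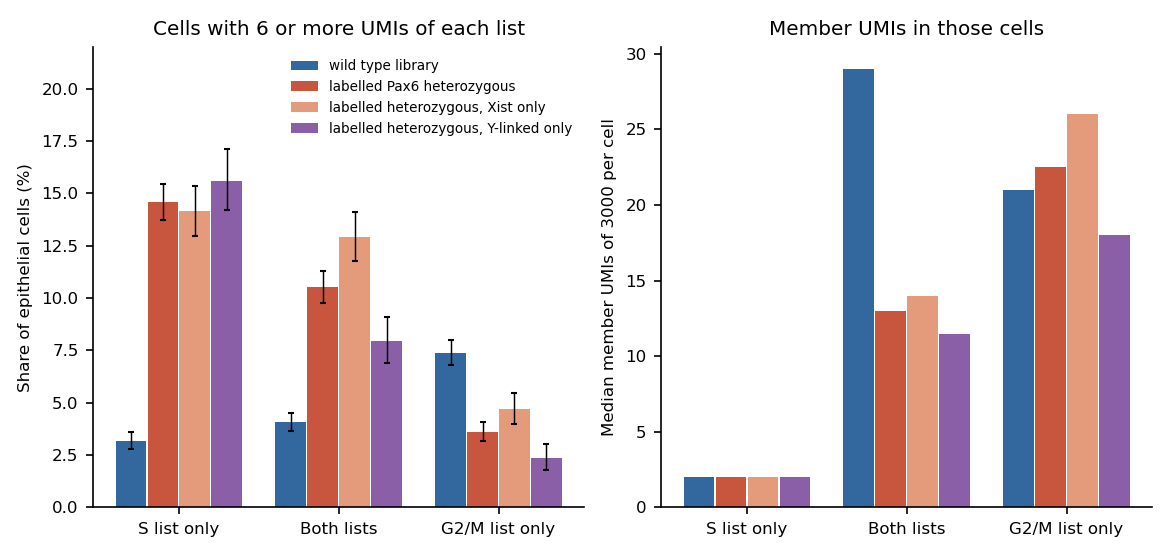
Left, share of epithelial cells (%) with 6 or more UMIs of 3000 of the S list alone, of both lists and of the G2/M and mitotic list alone, by library and, within the labelled heterozygous library, by sex of the cell, with bars for exact 95% binomial intervals. Right, median member UMIs of 3000 in those cells: the wild-type bar for both lists stands at 29 against 13, while the bars for the G2/M list alone stand at 21 and 22.5.

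G2/M-only cells were few in the labelled heterozygous library, but taken over both sexes their median sum was close to the wild-type one. In G2/M-only cells the median sum was 21 in the wild-type and 22.5 in the labelled heterozygous library, and 39.2% and 40.8% of them had 30 or more member UMIs. Within the labelled heterozygous library the median was 26 in the 153 such cells with Xist alone. It was 18 in the 57 with Y-linked UMIs alone, so the closeness does not hold within a sex. The summed level of G2/M-only cells of both sexes was 9530 and 9615 CPM, with a ratio of 1.01 (0.998 to 1.02). There 1 member, Pttg1, stood at 2 or above, against 16% of all genes, and 0 at or below 0.5, against 7.47%. In cells positive for both lists the medians were 29 and 13 and the summed level 10045 and 5599 CPM, with a ratio of 0.557 (0.551 to 0.564), with 19 of 38 members at or below a ratio of 0.5 against 7.03% of all genes, and 0 at 2 or above, against 14.6%. Since the lists chose these cells, their levels are a description. In cells chosen by genes outside the group instead, with 8 or more UMIs of the 44 other mitotic genes (688 and 714 cells), the ratio was 0.715 (0.709 to 0.721), with 10 of 38 members at or below 0.5, against 7.79% of all genes, and 0 at 2 or above, against 16.6%.

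Single members differed between these sets of cells. In cells positive for both lists Ube2c stood at 568 CPM in wild-type cells against 113 CPM in labelled heterozygous ones, a ratio of 0.198, and in G2/M-only cells at 837 and 611 CPM, with a ratio of 0.730. Cenpf had ratios of 0.299 and 0.693 in the same cell sets, and Ccnb1 0.331 and 0.909. Cdc20 had ratios of 0.657 and 1.155, and Pttg1 was above 1 in both sets, at 1.17 and 2.89. Top2a, needed from S phase on, had ratios of 0.597 and 1.24, and Bub1, Aurkb and Ttk stood higher in the G2/M-only cells of the labelled heterozygous library, with ratios of 1.48, 1.35 and 1.84. Within the labelled heterozygous library, the mean of Cenpa per cell was 0.196 UMIs of 3000 in cells positive for both lists and 1.21 in G2/M-only cells, whereas in the wild-type library it was 0.419 and 1.02.

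Outside the positive cells the order of the members changed. In epithelial cells with under 6 member UMIs the group summed to 429 and 498 CPM, with a ratio of 1.16 (1.15 to 1.18). Hmgb2 alone stood at 166.8 and 307.5 CPM there, a wider gap than that of the whole sum. The other members together stood lower in the labelled heterozygous library through Pttg1, at 99.8 and 10.5 CPM. Without Pttg1 as well, the rest together stood higher there. Among members that passed the filter in these cells, 10 had a ratio above 1 and 7 below it. Of the 17 members that passed the filter there, 4 stood at least 2-fold higher in the labelled heterozygous library, against 17.2% of all genes, and 3 at least 2-fold lower, against 6.55%. Cdc20 stood at 2.86 and 12.7 CPM, with a ratio of 4.46 (3.897 to 5.11), and Cdk1 at 3.30 and 10.7 CPM. Kif23 stood at 23.3 and 7.06 CPM, and Cenpf at 10.8 and 3.64 CPM. In cells positive for the S list alone 2 of 24 members stood at 2 or above and 2 at or below 0.5, against 14.9% and 6.93% of all genes. In cells positive for neither list the counts were 2 and 3 of 13, against 16.3% and 6.46%. These levels are low, and Cdc20 was seen in 0.733% and 3.27% of the thinned cells.

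**Figure D3:**
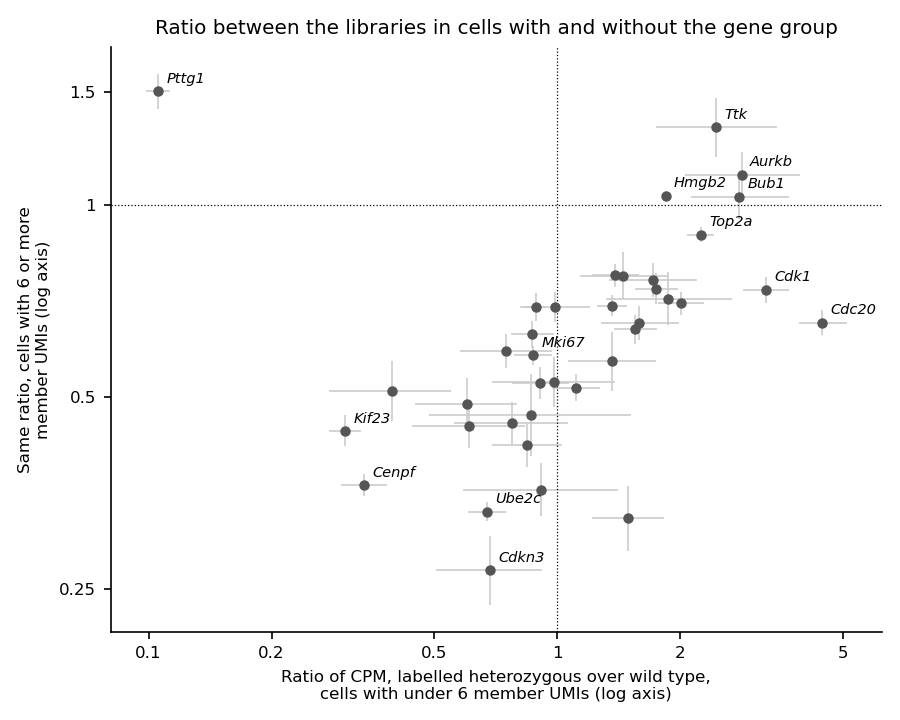
Ratio of the labelled heterozygous over the wild-type level of each member in epithelial cells with under 6 member UMIs (horizontal, log axis) and with 6 or more (vertical, log axis), with exact 95% intervals of counting error. Pttg1 stands alone at the upper left, at 0.105 and 1.51, and Cdc20 at the right, at 4.46 and 0.653.

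Pttg1 was unlike every other member. In positive epithelial cells it stood at 105 CPM in wild-type cells against 158 CPM in labelled heterozygous ones, a ratio of 1.51 (1.41 to 1.60), and in G2/M-only cells at 120.2 and 347 CPM. In cells with under 6 member UMIs it stood at 99.8 and 10.5 CPM, with a ratio of 0.105 (0.0984 to 0.113). In the wild-type library the gene was level across dividing and other cells, and 12.9% of its epithelial UMIs lay in positive cells, against a median of 90.7% over the members. In the labelled heterozygous library 76.3% of its UMIs lay there, against a median of 88.3%. Across wild-type epithelial cells its correlation with the summed members was 0.227, against 0.611 in the labelled heterozygous library.

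A similar wild-type level of Pttg1 reached into cell types that hardly divided. In wild-type keratocytes it stood at 99.2 CPM (91.1 to 108), in mural cells at 119 and in blood endothelium at 72.1 (48.3 to 104). In the labelled heterozygous library these types stood at 12.6 (10.7 to 14.7), 17.1 and 9.44 CPM (6.05 to 14.1). No interval of the wild-type library overlaps one of the other within these types. Pttg1 made up 46.9% of all member UMIs in wild-type keratocytes (543 of 1159) and 6.02% in wild-type epithelium, so its share of the group was not that of the epithelium. In the labelled heterozygous library both sexes had the low level in cells with under 6 member UMIs, 13.1 CPM in cells with Xist alone and 8.17 CPM in cells with Y-linked UMIs alone. Strain is not given, and genotype, animal and library cannot be told apart here.

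**Figure D4:**
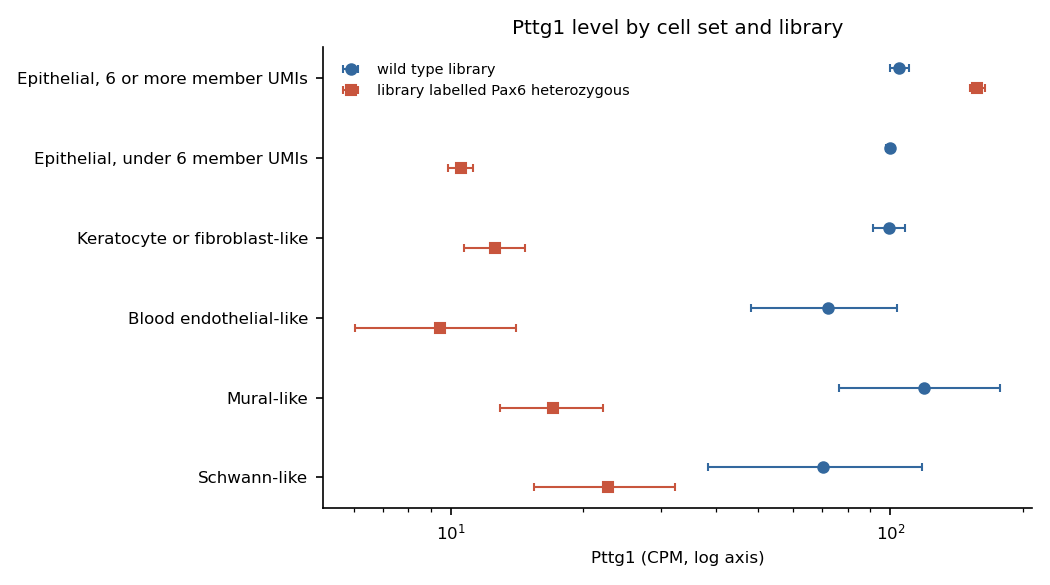
Level of Pttg1 in CPM on a log axis in epithelial cells with and without the gene group and in 4 other cell types, by library, with exact 95% Poisson intervals. The wild-type points lie between 70.2 and 119 CPM in each set, and those of the labelled heterozygous library lie between 9.44 and 22.7 CPM except in positive epithelial cells, at 158 CPM.

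The position of the positive cells in the epithelium was read from Krt14. Bands of under 5, 5 to 20 and 20 or more Krt14 UMIs per 10000 held 59.0%, 23.1% and 17.9% of the thinned wild-type epithelium and 14.7%, 11.7% and 73.6% of the labelled heterozygous one, so the libraries differ in make-up. In the wild-type library 7.01%, 16.9% and 19.04% of the cells of these bands were positive, and in the labelled heterozygous library 5.60%, 14.9% and 15.7%. The group was therefore seen more often where Krt14 was higher in both libraries. Within each band the labelled heterozygous share was the lower one, although over all epithelial cells it was the higher one, and in the low and middle bands the intervals overlap. Among cells with Xist alone the order in the high and middle bands was the reverse, at 20.8% against 18.97% and 17.3% against 16.9%, with overlapping intervals, and in the low band it held, at 3.86% against 7.01%.

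Summed levels were lower in each band. In the high band the group stood at 2818 and 1769 CPM, with a ratio of 0.628 (0.621 to 0.634), in the middle band at 2435 and 1178 CPM, with a ratio of 0.484 (0.475 to 0.492), and in the low band at 1039.6 and 729 CPM, with a ratio of 0.701 (0.688 to 0.715). Members at or below a ratio of 0.5 numbered 17 of 38, 28 of 38 and 18 of the 35 that passed, against 5.81%, 6.30% and 8.46% of all genes, and none stood at 2 or above, against 17.5%, 14.7% and 12.2%. Ube2c in the middle band stood at 165 and 22.2 CPM, with a ratio of 0.135 (0.119 to 0.152), and Ccnb1 at 29.9 and 4.67 CPM. Above a ratio of 1 stood Hmgb2 (1.07) and Ttk (1.46) in the high band, no member in the middle band, where Hmgb2 was highest at 0.922, and Hmgb2 (1.34) and Aurkb (1.096, 0.846 to 1.41) in the low band. With cells with Xist alone in both libraries the ratios of the summed level were 0.819 (0.811 to 0.829), 0.553 and 0.660 from the high to the low band. Members at or below 0.5 then numbered 4 of 38, 23 of 38 and 20 of 34, against 5.36%, 5.83% and 8.31% of all genes, so in the high band the count came close to the background. At 2 or above stood 1, 0 and 0, against 19.3%, 15.2% and 12.4%.

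The Gpha2 and Krt4 gates gave other shares. Cells with Gpha2, a marker of limbal stem cells, at 3 or more UMIs per 10000 were positive for the group in 8.48% of the wild-type library (33 of 389, 5.91 to 11.7) and in 14.5% of the labelled heterozygous one (326 of 2243, 13.1 to 16.1). Cells without it gave 11.6% and 13.9%. In the wild-type library Gpha2-positive cells thus held the group less often by point value, with overlapping intervals, and in the labelled heterozygous library they did not. Cells with Krt4, a keratin of conjunctival and other mucosal epithelia, at 10 or more per 10000 were positive in 7.75% of the labelled heterozygous library (91 of 1174) against 15.6% of those without (802 of 5137), whose intervals do not overlap. None of 52 wild-type Krt4 cells was positive, which allows a share of up to 5.77% by the limit of 3 counts and of up to 6.85% by the exact interval. Among cells that kept Krt12 at 20 or more per 10000 the shares were 11.5% in the wild-type (866 of 7538) and 14.6% in the labelled heterozygous library (82 of 560, 11.8 to 17.9). This Krt12 limit was also passed by 257 of the 389 wild-type Gpha2-positive cells and by 29 of 2243 in the other library. Of the Krt4 cells 24 of 52 and 1138 of 1174 fell below it, so both gates are named by gene alone.

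**Figure D5:**
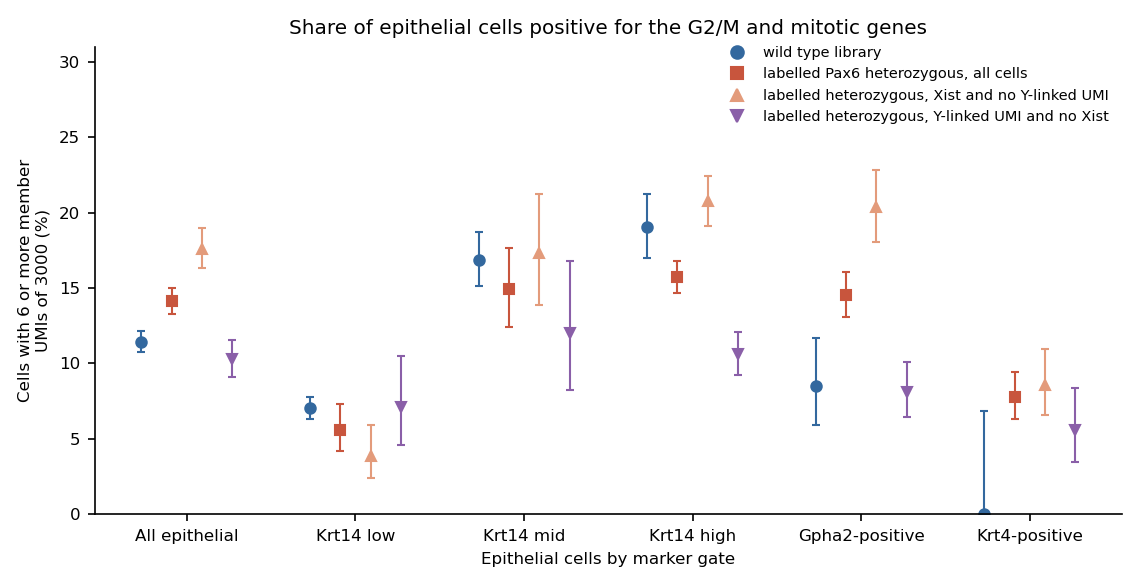
Share of epithelial cells (%) with 6 or more member UMIs of 3000, by marker gate, for the wild-type library, the library labelled Pax6 heterozygous and the latter's cells with Xist alone and with Y-linked UMIs alone, with exact 95% binomial intervals. Over all epithelial cells the wild-type point (11.4%) lies between the Xist (17.6%) and Y-linked (10.3%) points of the other library.

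Sex of the cells moved with the group. Within the labelled heterozygous library 17.6% of cells with Xist alone were positive (573 of 3254, 16.3 to 18.96) and 10.3% of cells with Y-linked UMIs alone (249 of 2421, 9.10 to 11.6). The wild-type share of 11.4%, from cells with Xist, lies between them, and like for like by Xist it is 11.4% against 17.6%. The difference within the library was wide in cells with high Krt14, at 20.8% against 10.6%, and in Gpha2-positive cells, at 20.4% (227 of 1115) against 8.11% (73 of 900). In cells with low Krt14 the order was the reverse, 3.86% against 7.12%, with overlapping intervals. S-positive cells differed less, at 27.04% and 23.5%.

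Every member that passed stood lower in the cells with Y-linked UMIs. The summed level was 1908 CPM in cells with Xist alone and 1129 CPM in cells with Y-linked UMIs alone, a ratio of 0.592 (0.585 to 0.598). All 37 that passed had a ratio below 1, and 11 of them were at or below 0.5, against 1.13% of all 10478 genes that passed there, and 0 at 2 or above, against 0.191%. Their median log2 ratio was -0.94, and that of all genes -0.08. Aspm, a spindle pole protein, stood at 15.5 and 6.21 CPM, with a ratio of 0.400, Cenpf at 54.0 and 22.1 CPM and Nusap1 at 36.6 and 15.7 CPM. Hmgb2 had the ratio nearest 1, at 0.716. If each sex is 1 mouse, sex and animal cannot be told apart, and the part of either in the difference between the libraries was not tested. For Pttg1, Ube2c, Cenpf, Kif23, Cdkn3 and Plk1 even the cells with Xist alone stood below the wild-type level, for instance at 60.9 against 107 CPM for Ube2c and 46.8 against 99.9 CPM for Pttg1.

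Vascular, mural, Schwann and keratocyte-like cells held little of the group, and immune cells held more with Hmgb2 counted. In the labelled heterozygous library 3 of 259 blood endothelial-like cells, 6 of 470 mural-like cells, 1 of 137 lymphatic endothelial-like cells, 2 of 214 Schwann-like cells and 5 of 88 myeloid-like cells were positive. Of T or NK-like cells 4 of 17 were positive there (23.5%, 6.81 to 49.9), which overlaps the epithelial share, and 1 of 2 in the wild-type library, where 2 of 20 myeloid-like cells were positive. Without Hmgb2 none of these 17 T or NK-like cells and none of these 20 myeloid-like cells was positive. The median sum of the 4 positive T or NK-like cells was 6, the limit itself, and all 17 had Scrublet scores among the highest 5%. Of the labelled heterozygous myeloid-like cells 3.4% were positive without Hmgb2, against 5.7% with it. Myeloid-like cells summed to 648.4 CPM in the wild-type and 1000.6 CPM in the labelled heterozygous library. The wild-type library held between 2 and 55 thinned cells of each of these types, too few for a comparison. In vascular, mural, Schwann and immune cells together the group summed to 543 CPM in the wild-type and 406 CPM in the labelled heterozygous library, much of it Hmgb2, at 182 and 147 CPM. Gas2l3 was set apart from the other members by its level in Schwann-like cells, 316 and 319 CPM, against 11.2 and 6.12 CPM in the epithelium. Keratocyte-like cells came from different clusters, mainly one led by Cadps and Htr5b in the wild-type library and ones led by Col9a1, Tac1 and Cnmd in the other. Below the keratin gate, cells in clusters with epithelial markers were positive in 27.4% of the wild-type library (62 of 226) and in 8 of 17 cells of the other, so the gate left out some wild-type cells rich in the group.

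Genes outside the cell cycle lists with the pattern most like the group were found by Pearson's r between their level and the summed members across epithelial cells, 7707 and 6311 cells, as a description, since genes of 1 cell share its depth. Stmn1, a regulator of microtubules, led with 0.788 in the wild-type and 0.695 in the labelled heterozygous library. Of the 10 most alike in each library 6 were shared, the others being Cks1b, Cep55, Diaph3, Tubb5 and Tk1. All 6 shared genes stood higher in the labelled heterozygous epithelium under the class total, among them the tubulin Tubb5 at 274.5 and 624.6 CPM, Stmn1 at 139 and 332 CPM and the thymidine kinase Tk1 at 16.6 and 51.1 CPM. Cep55 differed little, at 9.83 and 10.7 CPM. Of all 10661 genes that passed, 6837 stood above a ratio of 1 under the class total, and these 6 were not read under the other scalings.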

How the data were processed

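Single-cell RNA was counted in 1 wild-type library and 1 library labelled Pax6 heterozygous. The authors deposited raw UMI counts, not normalized, for each gene in each barcode, made with Cell Ranger 8.0.0 per the file headers and on GRCm38 per the submitters' processing notes. Barcodes numbered 11354 and 10574, the lowest at 500 UMIs. Scrublet (scanpy 1.11.5) marked 3 cells (0.0295%) and 37 cells (0.388%), so it did not work and no cell was removed. Positions are from GENCODE vM21 of the same build.

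UMIs were summed per class and expressed as CPM. Ratios carry exact conditional binomial 95% intervals, shares Clopper-Pearson ones. Both cover counting error only. The ratio and thinning code was tested on simulated data. Cells below the keratin gate were clustered (Leiden, resolution 1) and named by at least 3 fixed markers at 20 CPM or more. All 38 members are described or counted by role. Members and lists were chosen with earlier results of these data known, and the marker bands and the naming rule were set after the data were seen. Alternatives used edgeR 4.0.16 and DESeq2 1.42.0 scaling factors, other gates, filters, limits and thinning depths, and cells of 1 sex.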

Additional observations from a re-analysis of the deposited data

Results flagged for a closer look

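For 4 members the ratio of the labelled heterozygous over the wild-type level was at least 1.5-fold from 1 in opposite directions in epithelial cells with 6 or more member UMIs and in those with fewer. Pttg1 had ratios of 1.51 and 0.105, Cdc20 of 0.653 and 4.46, Ccna2, the S and G2 cyclin, of 0.652 and 1.59, and the spindle assembly factor Tpx2 of 0.637 and 1.55. The difference between these cell sets was not tested, the sets were themselves chosen by the summed members, and Ccna2 stood at 1.502 and 2.39 CPM in the cells with fewer.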

How the results depend on the processing

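No paired analysis was possible because each genotype has 1 library. The summed level ratio of 0.924 fell to 0.735 with edgeR's TMM and 0.7245 with DESeq2's size factors, and was 0.915 with mitochondrially encoded genes in the total, 0.901 and 1.055 at keratin gates of 20 and 50 per 10000, 0.982 without the 5% highest Scrublet scores, 0.764 without Hmgb2 and 1.15 with labelled heterozygous cells with Xist alone. In settings chosen after seeing the data it was 0.680 with cells with Y-linked UMIs alone and 0.961 without Pttg1. The sum thus changes side with the gate and the sex of the cells. Members at or below a ratio of 0.5 numbered 13 under each other scaling, 3 at the gate of 50, 2 with Xist cells and 17 with Y-linked cells, in place of 6, and members at 2 or above numbered 1 at the gate of 50 and 1 with Xist cells, in place of 0. The share of all genes past 2-fold was not counted at the gate of 50 or with cells of 1 sex. The counts in those settings therefore cannot be set against a background.

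The wild-type share of positive cells moved from 11.4% to 10.3% at the gate of 50, 10.5% without high Scrublet scores, 10% without Hmgb2 and 12.25% at 2000 UMIs with a limit of 4. The labelled heterozygous share moved from 14.2% to 17.6% with Xist cells, 10.29% with Y-linked cells and 10.3% without Hmgb2. With limits of 3 and 12 UMIs the shares were 23.1% and 29.1%, and 8.03% and 8.38%. Of 416 member ratios recomputed in other settings, 220 fell outside the interval of the reported ratio. Of 299 shares of cells within gates and lists, 103 fell outside theirs. No member called at least 2-fold lower as reported was called at least 2-fold higher in another setting. Members within 2-fold did change side, as Top2a and Cdk1 did under the edgeR and DESeq2 scalings. The order of the shares also changed. With Y-linked cells the labelled heterozygous share of 10.29% lay below the wild-type share of 11.4%. The causes were not tested. With 1 library per genotype, counting depth limits the low members, and differences between animals cannot be told apart from genotype.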
